A study of Mus musculus with 18 samples.

Results

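The genes described here are 9 of the 45706 genes in the deposited count table: B2m, H2-K1, H2-D1, Tap1, Psmb8, Psmb9, Nlrc5, Irf1 and Irf7. They were chosen by name, as genes of antigen presentation by class I molecules of the major histocompatibility complex (MHC) and as regulators of the interferon response. RNA was sequenced from Hmga2 wt and Hmga2 KO mouse induced pluripotent stem cells (iPSCs) at 0 h and at 24 h of their induction into epiblast-like cells (EpiLCs), with 18 libraries in 6 groups of 3 biological replicates. The groups were wt 0 h, KO#1 0 h, KO#2 0 h, wt 24 h, KO#1 24 h and KO#2 24 h. The wt libraries came from 1 clone and each KO from 1 clone, so that differences between genotypes are also differences between single clones. At 0 h the iPSCs were on a layer of inactivated fibroblast feeder cells in medium with serum, leukaemia inhibitory factor and inhibitors of MEK and GSK3, and at 24 h they were on Geltrex, without feeders, and received Activin A and bFGF. The presence of feeders and the time of induction therefore cannot be told apart by the design. In these bulk RNA libraries, fewer cells of a type and less RNA per cell cannot be told apart either.

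MHC class I molecules display short peptides at the cell surface, where cytotoxic T cells inspect them. A heavy chain, encoded by genes such as H2-K1 and H2-D1, pairs with the light chain beta-2 microglobulin, encoded by B2m. The peptides are cut by the proteasome, which can exchange its constitutive catalytic subunits for the inducible subunits Psmb8 and Psmb9, and are carried into the endoplasmic reticulum by a transporter of which Tap1 is one subunit. Interferons raise the transcription of these genes through Stat proteins and interferon regulatory factors such as Irf1 and Irf7, and Nlrc5 is the transactivator that acts on class I promoters. Pluripotent cells are known for a low surface level of class I molecules and a weak interferon response.

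B2m lies on chromosome 2 (chr2:122147686-122153083, plus strand, GRCm38), Irf1 on chromosome 11 (chr11:53770014-53778374, plus), Irf7 on chromosome 7 (chr7:141262706-141266481, minus) and Nlrc5 on chromosome 8 (chr8:94434356-94527272, plus). The other 5 genes lie in the MHC on chromosome 17, H2-K1 at chr17:33996017-34000347 (minus), Psmb9 at chr17:34181987-34187764 (minus), Tap1 at chr17:34187553-34197225 (plus), Psmb8 at chr17:34197721-34201454 (plus) and H2-D1 at chr17:35262730-35267499 (plus). Tap1 and Psmb9 overlap head to head and share 212 exonic bases on opposite strands. Reads from such shared bases can be assigned to one gene only where the strand is used in counting, which is not given in the sources used here. Of the possible 75-base reads of each gene, 3.10% of H2-K1, 5.56% of H2-D1 and 9.97% of Psmb8 were also found in another gene, other class I genes for the first pair and the antisense gene Gm20496 for Psmb8, against none of B2m.

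The bases before the RefSeq start of 5 of these genes are printed because the genes share a pathway yet differ in the values that follow. RefSeq promoter windows (GRCm38.p6) were found for 8 of the 9 genes, and the 250 bases before each start were searched on both strands for AANNGAAA, the core bound by interferon regulatory factors, for TTCNNNGAA, the gamma-activated sequence (GAS) bound by Stat dimers, and for CCAAT. Capitals mark every match, positions are counted back from the start, and a match is a description of the letters and not a measured binding site.
B2m (chr2:122147437-122147686, plus): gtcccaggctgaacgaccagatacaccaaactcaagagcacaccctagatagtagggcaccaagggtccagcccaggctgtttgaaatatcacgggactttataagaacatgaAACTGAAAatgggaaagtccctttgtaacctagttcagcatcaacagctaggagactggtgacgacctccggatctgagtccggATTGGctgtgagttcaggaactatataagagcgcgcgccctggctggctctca
H2-K1 (chr17:34000348-34000597, minus): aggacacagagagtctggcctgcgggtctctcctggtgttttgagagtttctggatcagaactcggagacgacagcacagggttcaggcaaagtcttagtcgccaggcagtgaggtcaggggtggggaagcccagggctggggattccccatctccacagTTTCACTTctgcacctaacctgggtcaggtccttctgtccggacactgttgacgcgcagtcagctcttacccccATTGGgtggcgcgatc
H2-D1 (chr17:35262844-35263093, plus): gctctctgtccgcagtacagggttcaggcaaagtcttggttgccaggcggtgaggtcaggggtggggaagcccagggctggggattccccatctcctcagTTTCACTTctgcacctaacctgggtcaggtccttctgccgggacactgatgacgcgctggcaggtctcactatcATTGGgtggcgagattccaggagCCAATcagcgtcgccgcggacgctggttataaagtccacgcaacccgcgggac
Tap1 (chr17:34187306-34187555, plus): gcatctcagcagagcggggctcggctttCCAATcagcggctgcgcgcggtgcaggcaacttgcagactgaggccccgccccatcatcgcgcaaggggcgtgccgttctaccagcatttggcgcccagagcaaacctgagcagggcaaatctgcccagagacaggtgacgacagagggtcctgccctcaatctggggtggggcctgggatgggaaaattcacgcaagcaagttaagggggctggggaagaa
Irf1 (chr11:53769764-53770013, plus): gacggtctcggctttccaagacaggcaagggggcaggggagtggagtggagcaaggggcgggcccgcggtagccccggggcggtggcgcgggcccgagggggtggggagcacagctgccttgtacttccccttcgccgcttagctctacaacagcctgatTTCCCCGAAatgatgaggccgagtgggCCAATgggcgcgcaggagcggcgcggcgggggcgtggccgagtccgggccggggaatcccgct

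AANNGAAA was present before 3 of the 8 genes, B2m (AACTGAAA, −137 to −130), H2-K1 (TTTCACTT, its reverse complement, −90 to −83) and H2-D1 (TTTCACTT, −150 to −143), and in 21.3% of all 32851 windows. TTCNNNGAA was present before 2 of the 8, Irf1 (TTCCCCGAA, −90 to −82) and Psmb8 (TTCCCAGAA, −97 to −89), and in 7.02% of all windows. CCAAT was present before 6 of the 8 and in 33.8% of all windows. No match of one motif overlapped a match of another in the windows shown. H2-K1 and H2-D1 had an identical run of 47 bases, and the windows of Tap1 and Psmb9 had 225 bases in common, read on opposite strands. The letters were not related to the levels by a test.

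The totals of counts per library ran from 3466436 to 23872837, with a median of 16474196, and 3 counts, taken as the detection floor, were worth 0.116 to 0.984 CPM (counts per 1000000). CPM divide a count by the summed counts of the 16619 tested genes in its library and by the TMM factor of that library, which corrects for differences in composition. Hmga2, the targeted gene, had 17.7 ± 4.53 CPM (SD, n = 3) in wt 0 h, 5.50 ± 4.28 in KO#1 0 h, 4.73 ± 3.25 in KO#2 0 h, 5.77 ± 0.23 in wt 24 h, 2.26 ± 1.40 in KO#1 24 h and 5.65 ± 4.17 in KO#2 24 h. At 0 h Hmga2 was lower in KO#2 than in wt cells by edgeR (−1.90 on the log2 scale, adjusted p = 0.0230), and the difference in KO#1 was not called (−1.71, adjusted p = 0.124). At 24 h the KO#2 libraries had 10.5, 3.02 and 3.48 CPM, the first above and the others below the 5.51 to 5.93 of wt cells, and the difference was −0.04 (95% interval −1.31 to 1.23). In KO#1 at 24 h the difference was −1.36 on the log2 scale and was not called (edgeR adjusted p = 0.220). In wt cells Hmga2 had a log2 fold change of −1.61 from 0 h to 24 h (edgeR adjusted p = 0.0362). Against wt cells, Hmga2 was thus called lower in KO#2 at 0 h alone. At 24 h the RNA of Hmga2 did not set all 3 KO#2 libraries below wt cells. The deleted part of the gene is not known from the counts, and every direction below is given for KO#2-labelled libraries. Protein-coding genes took 41.6 to 63.4% of the counts in wt 24 h, 41.3 to 63.1% in KO#1 24 h and 82.3 to 84.7% in the KO#2-labelled libraries at 24 h. Without TMM, with library sizes alone, the median over all tested genes, as a log2 fold change, was 1.24 in the KO#2-labelled libraries against wt cells at 24 h, 1.21 against KO#1 at 24 h and −0.58 in wt cells from 0 h to 24 h. On that scale B2m differed by −0.06 between the KO clones at 24 h, which is −1.27 relative to the median gene, and Irf1 by 0.51 in wt cells with time, which is 1.10 relative to it. The part of this composition in the differences between the KO#2-labelled libraries and the others was not tested. The sum of 8 pluripotency markers was 4224 to 5083 CPM in wt 0 h and 1918 to 2246 in wt 24 h, 4487 to 4504 and 1710 to 2173 in KO#1, and 3376 to 3840 and 1618 to 1967 in the KO#2-labelled libraries, with 5 of the 8 called lower with time in each line (medians of −3.11, −2.19 and −1.73 on the log2 scale), against 24.7%, 20.6% and 13.3% of all genes. At 24 h, 3 of the 8 were higher and 0 lower in KO#1 than in wt cells, and 5 higher and 1 lower in the KO#2-labelled libraries, where 6.25% and 21.3% of all genes were higher and 3.61% and 16.0% lower. The part of this in the differences at 24 h was not tested. All 6 EpiLC markers were called higher with time in each line, against 26.0%, 20.1% and 12.7% of all genes. Their sum was 76.8 to 115 CPM at 0 h. At 24 h it was 814 to 1516 CPM in wt cells, 414 to 938 in KO#1 and 378 to 812 in the KO#2-labelled libraries. Against wt cells at 24 h, 0 were higher and 3 lower in KO#1 (median −1.51 on the log2 scale). In the KO#2-labelled libraries 0 were higher and 2 lower (median −0.56), where 3.61% and 16.0% of all genes were lower. The part of the EpiLC markers in the differences at 24 h was not tested either.

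The 9 genes covered a wide range of levels. Expressed per kilobase of exon, so that genes can be compared, B2m had the highest group mean at 0 h (25.4 ± 3.11 CPM per kb in KO#1, SD, n = 3) and Irf1 reached 9.80 ± 3.62 CPM per kb in KO#1 24 h. H2-K1 stayed between 3.08 and 6.95 CPM per kb, H2-D1 between 1.85 and 3.91 and Tap1 between 0.32 and 1.36. The means of the other 4 genes were at or below 0.410 CPM per kb in every group. Psmb8 and Irf7 had too few counts for the filter of the test, which 7 of the 9 genes passed.

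**Figure D1:**
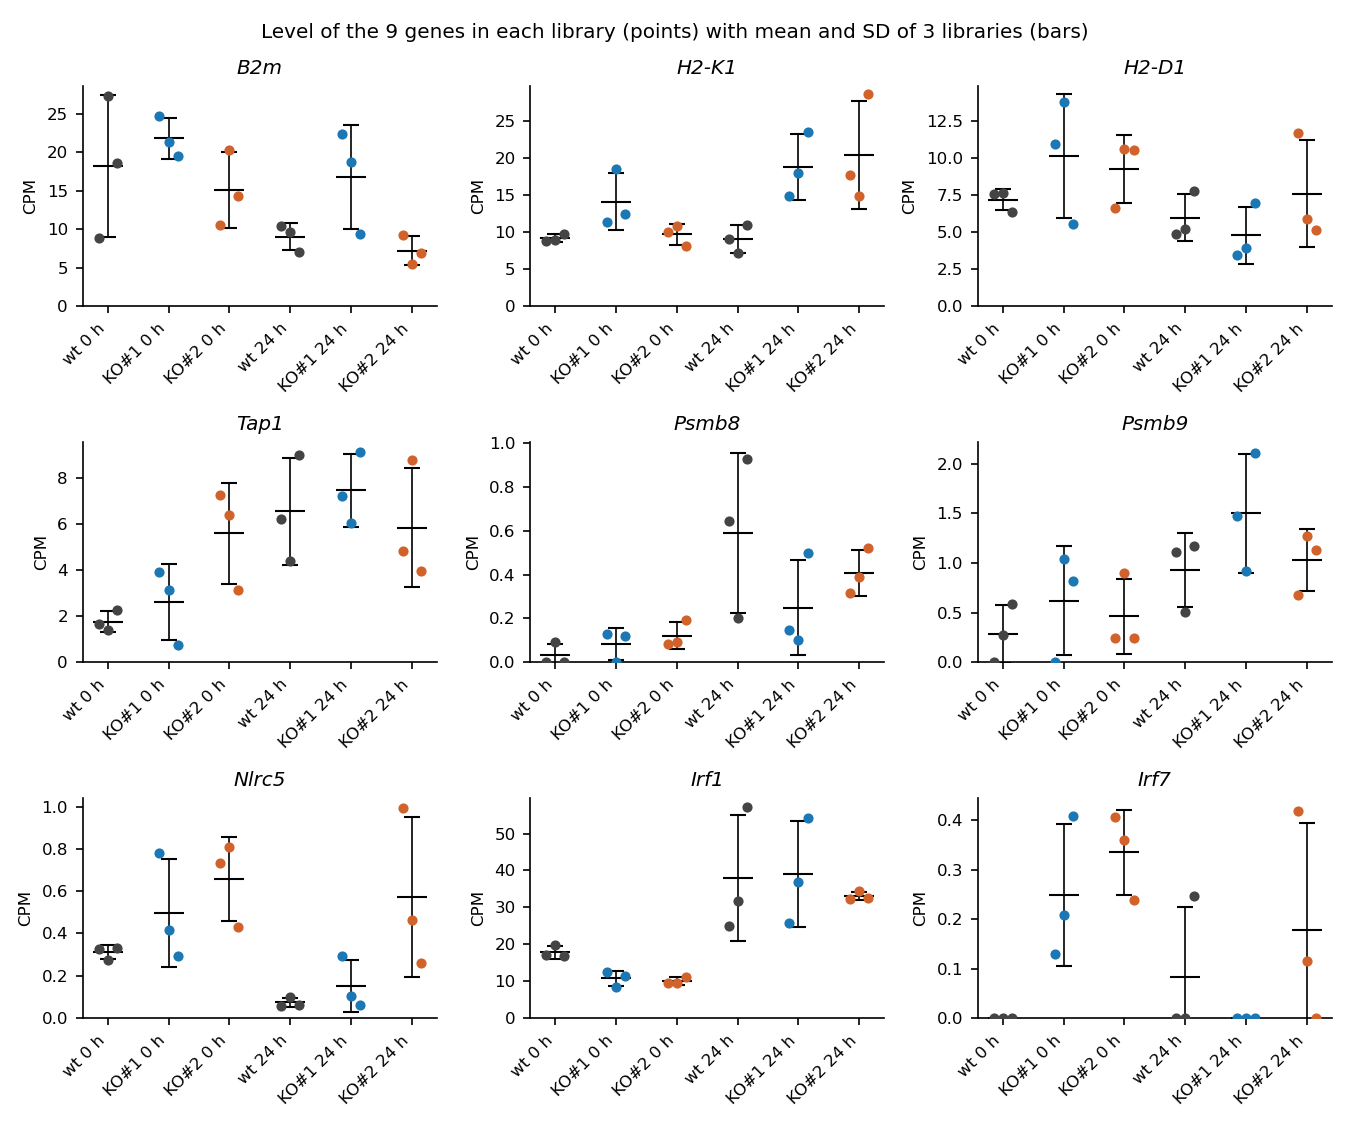
CPM (y axes, linear, from 0) of each of the 9 genes in the 6 groups (x axes), where points are the 3 libraries of a group and bars the mean and SD. Irf1 is higher at 24 h than at 0 h in all 3 lines, B2m is lowest in KO#2 24 h (5.49 to 9.25 CPM), and Psmb8, Nlrc5 and Irf7 remain below 1 CPM throughout.

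The quasi-likelihood test of edgeR was applied to each gene in one fit of all 18 libraries, and called at a Benjamini-Hochberg adjusted p under 0.05 over all 16619 tested genes. Since the libraries are 3 replicates of 1 clone per genotype, the p-values measure the spread between replicates and not between clones. From 0 h to 24 h, 3 of the 7 tested genes were called in wt cells, 2 higher and 1 lower, where 50.7% of all tested genes were called, 26.0% higher and 24.7% lower. In KO#1 also 3 were called, 2 higher and 1 lower, against 40.8% of all genes, 20.1% higher and 20.6% lower. In the KO#2-labelled libraries there were again 3, 2 higher and 1 lower, against 26.0% of all genes, 12.7% higher and 13.3% lower. The 7 genes were thus called in shares of the order of the background.

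Between genotypes at 0 h, 0 of the 7 genes were called in KO#1 against wt cells, where 6.67% of all genes were called, 3.99% higher and 2.68% lower. Irf1 was the 1 gene with an unadjusted p under 0.05 there, and DESeq2 called 0. In the KO#2-labelled libraries against wt cells at 0 h, 2 were called, 1 higher and 1 lower, against 38.1% of all genes, 21.5% higher and 16.6% lower. At 24 h, 1 gene was called higher and 0 lower in KO#1 against wt cells, where the background was 9.86%, with 6.25% higher and 3.61% lower. In the KO#2-labelled libraries against wt cells at 24 h, 2 were called higher and 0 lower, against 37.3% of all genes, 21.3% higher and 16.0% lower.

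Between the KO clones at 0 h, 0 of the 7 genes were called, where 26.4% of all genes were called, 15.1% higher and 11.3% lower in the KO#2-labelled libraries. Tap1 alone had an unadjusted p under 0.05, and DESeq2 called 0. At 24 h, 2 were called, 1 higher and 1 lower, against 35.4% of all genes, 19.3% higher and 16.1% lower. The change from 0 h to 24 h did not differ by a called amount between KO#1 and wt cells for any of the 7 genes (0 at an unadjusted p under 0.05, and 0 by DESeq2, which gave an adjusted p for 5 of the 9 genes, not for Psmb8, Psmb9, Nlrc5 and Irf7), with 0.391% of all genes called. For the KO#2-labelled libraries against wt cells, this test called 0 of the 7, with 1.47% of all genes called. Tap1 and H2-K1 had an unadjusted p under 0.05 there, and DESeq2 called 0 of the same 5 genes. These comparisons share control samples, so that their counts are not independent of each other.

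**Figure D2:**
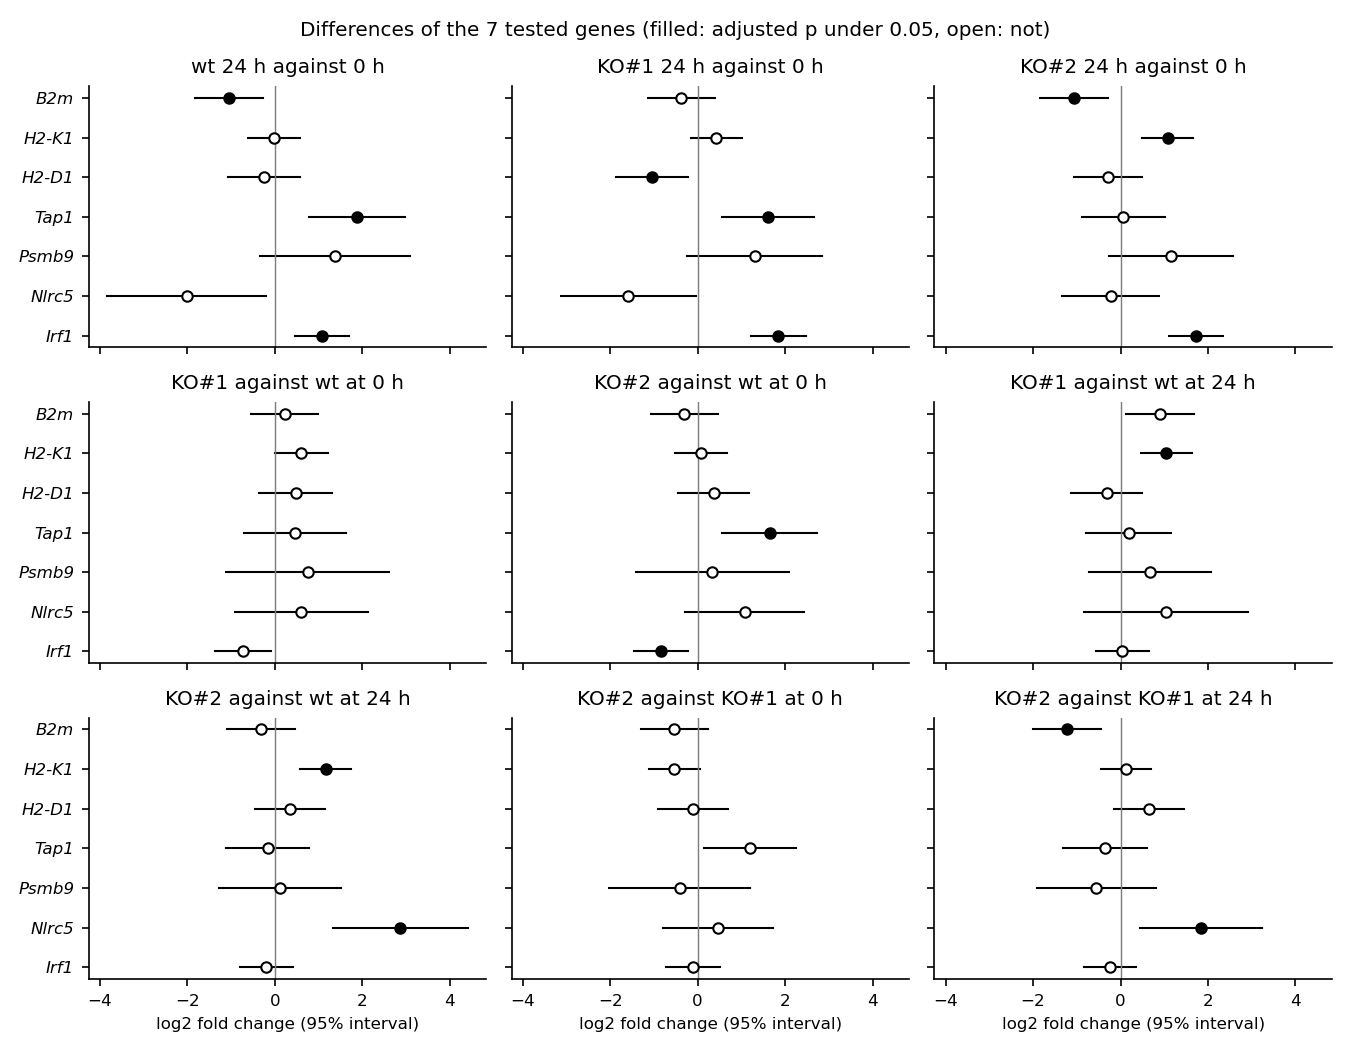
Log2 fold changes (x axes) of the 7 tested genes with 95% intervals from the edgeR fit in 9 comparisons, filled where the adjusted p was under 0.05. Irf1 is called higher at 24 h in all 3 lines, and H2-K1 is called higher at 24 h in both KO clones against wt cells (1.05 and 1.17).

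Irf1, a transcription factor that activates class I and other interferon-responsive genes, rose from 0 h to 24 h in all 3 lines. At 0 h it had 17.1, 19.8 and 16.7 CPM in the 3 wt libraries, 12.4, 8.35 and 11.5 in KO#1 and 9.43, 9.49 and 11.2 in the KO#2-labelled libraries. At 24 h it had 24.9, 31.7 and 57.2 CPM in wt cells, 25.7, 36.9 and 54.3 in KO#1 and 32.3, 34.4 and 32.6 in the KO#2-labelled libraries. Every library at 24 h was above every library at 0 h. Irf1 rose by 1.08 on the log2 scale in wt cells (SE 0.30, edgeR adjusted p = 0.00571), by 1.85 in KO#1 (SE 0.30, adjusted p = 0.000201) and by 1.72 in the KO#2-labelled libraries (SE 0.30, adjusted p = 0.000427). The rises in KO#1 and in the KO#2-labelled libraries were called in all 27 settings run. Without wt 24 h replicate 3, the highest library, the rise in wt cells was 0.61 and was not called (adjusted p = 0.0810), as with library sizes alone (0.51, adjusted p = 0.307).

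At 0 h Irf1 was lower in the KO#2-labelled libraries than in wt cells, a fold change of −0.83 on the log2 scale (SE 0.30, edgeR adjusted p = 0.0351), and all 3 libraries were below all 3 of wt cells. That call was lost in 8 of 27 settings, 6 of which left out 1 of the 6 libraries compared, with differences from −0.92 to −0.74 (adjusted p up to 0.0966). With library sizes alone the difference was −0.37 (edgeR adjusted p = 0.510), where the median over all tested genes was 0.54. KO#1 lay below wt cells at 0 h as well, without overlap, by −0.72 (SE 0.30), which was not called (edgeR adjusted p = 0.179). At 24 h the 3 lines overlapped, with differences from wt cells of 0.04 (95% interval −0.56 to 0.64) in KO#1 and −0.20 (−0.80 to 0.40) in the KO#2-labelled libraries. In order of mean level, the 24 h groups overlapped with their neighbours, KO#2 24 h lay above wt 0 h without overlap, wt 0 h above KO#1 0 h without overlap, and KO#1 0 h and KO#2 0 h overlapped. Of all tested genes outside the 9, Tor3a had the pattern most like that of Irf1, with r = 0.944 over the 18 libraries.

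B2m encodes the light chain of all class I molecules. It had 8.86, 27.4 and 18.6 CPM in wt 0 h, 24.8, 21.3 and 19.5 in KO#1 0 h, and 10.5, 20.3 and 14.3 in KO#2 0 h. At 24 h the values were 10.4, 9.62 and 7.04 CPM in wt cells, 22.4, 18.7 and 9.33 in KO#1, and 9.25, 5.49 and 6.91 in the KO#2-labelled libraries. The wt groups overlapped because the 0 h library with the smallest total (replicate 1, 27 counts of B2m) was as low as those at 24 h, and the groups of the KO#2-labelled libraries did not overlap. B2m fell by 1.05 on the log2 scale in wt cells (SE 0.37, edgeR adjusted p = 0.0254) and by 1.06 in the KO#2-labelled libraries (SE 0.37, adjusted p = 0.0400). In KO#1 the difference was −0.38 (SE 0.37, adjusted p = 0.421) and was not called.

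Without wt 0 h replicate 2 the B2m difference in wt cells was −0.65 (edgeR adjusted p = 0.178), and without wt 0 h replicate 3 or wt 24 h replicate 3 it was −1.05 and −0.95 and not called either (adjusted p = 0.0570 and 0.0754). In the KO#2-labelled libraries, leaving out 1 of 5 libraries ended the call, wt 0 h replicate 3, KO#2 0 h replicates 2 and 3 and KO#2 24 h replicates 2 and 3, with differences from −1.10 to −0.78 (adjusted p = 0.0510 to 0.161). At 24 h B2m was lower in the KO#2-labelled libraries than in KO#1, by −1.22 (SE 0.37, adjusted p = 0.0161), with no overlap. Without KO#1 24 h replicate 1 or KO#2 24 h replicate 2 that difference was −0.99 and −1.05 (adjusted p = 0.0695 and 0.0694), and with library sizes alone −0.06 (0.908). No difference between a KO clone and wt cells was called for B2m at either time, the largest being 0.90 (95% interval 0.12 to 1.67) in KO#1 at 24 h, which was 1.22 and called without KO#1 24 h replicate 3 (edgeR adjusted p = 0.0477). Immp2l was the gene most like B2m (r = 0.836 over 18 libraries).

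H2-K1 and H2-D1 encode classical heavy chains and did not follow the same course. H2-K1 had 8.86, 8.90 and 9.76 CPM in wt 0 h, 11.3, 18.6 and 12.4 in KO#1 0 h, and 10.0, 10.9 and 8.11 in KO#2 0 h. After 24 h the gene had 9.03, 7.21 and 10.9 CPM in wt cells, 14.8, 17.99 and 23.6 in KO#1, and 17.8, 14.9 and 28.7 in the KO#2-labelled libraries. The wt libraries were at the same level at both times (log2 fold change −0.02, 95% interval −0.62 to 0.58), and all 6 KO libraries at 24 h were above all 3 wt libraries at 24 h.

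In the KO#2-labelled libraries, H2-K1 rose with induction by 1.08 on the log2 scale (SE 0.28, edgeR adjusted p = 0.00784). At 24 h it was higher than in wt cells by 1.05 in KO#1 (SE 0.28, edgeR adjusted p = 0.0204) and by 1.17 in the KO#2-labelled libraries (SE 0.28, adjusted p = 0.00350). The last of these was called in all 27 settings run, with values from 0.85 to 2.16, the highest with library sizes alone, where it was 0.92 relative to the median gene. The KO#1 difference was not called without wt 24 h replicate 1, wt 24 h replicate 2 or KO#1 24 h replicate 3 (0.88 to 1.06, adjusted p = 0.0744 to 0.104) or with library sizes alone (1.02, adjusted p = 0.108), and the rise in the KO#2-labelled libraries was 0.76 without KO#2 24 h replicate 3 (adjusted p = 0.0714). At 0 h KO#1 lay above wt cells without overlap, by 0.61 (95% interval −0.00 to 1.21), a difference that was not called (edgeR adjusted p = 0.252). Between the KO clones at 24 h the difference was 0.12 (95% interval −0.45 to 0.69). The response to induction differed from that of wt cells by 1.10 on the log2 scale in the KO#2-labelled libraries (SE 0.40, adjusted p = 0.127), which was not called. Stoml3 was the gene most like H2-K1 (r = 0.882 over 18 libraries).

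H2-D1 had 7.54, 7.62 and 6.34 CPM in wt 0 h, 10.9, 13.8 and 5.55 in KO#1 0 h, and 6.58, 10.6 and 10.6 in KO#2 0 h. The 24 h values were 4.87, 5.21 and 7.78 CPM in wt cells, 3.45, 3.88 and 6.97 in KO#1, and 11.7, 5.88 and 5.13 in the KO#2-labelled libraries. Groups overlapped in each of the 9 comparisons. H2-D1 fell by 1.04 on the log2 scale in KO#1 (SE 0.39, edgeR adjusted p = 0.0409), the only call among its comparisons. That call was lost in 7 of 27 settings, including each fit that left out KO#1 0 h replicate 1 or 2 or KO#1 24 h replicate 1 or 2 (−0.96 to −0.77, adjusted p = 0.114 to 0.165). Hhipl1 was the gene most like H2-D1 (r = 0.825 over 18 libraries). H2-K1 and H2-D1 had r = −0.08 with each other over the same libraries, as a description.

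Tap1, a subunit of the peptide transporter, had 1.64, 1.38 and 2.25 CPM in wt 0 h, 3.91, 3.13 and 0.76 in KO#1 0 h, and 7.27, 6.39 and 3.12 in KO#2 0 h. After induction Tap1 had 6.22, 4.41 and 9.02 CPM in wt cells, 7.20, 6.03 and 9.15 in KO#1, and 4.81, 8.78 and 3.95 in the KO#2-labelled libraries. At 0 h the KO#2-labelled libraries already overlapped the 24 h values of the other lines, and they were above all 3 wt 0 h libraries. Tap1 rose by 1.88 on the log2 scale in wt cells (SE 0.52, edgeR adjusted p = 0.00634) and by 1.61 in KO#1 (SE 0.51, adjusted p = 0.0173), with no overlap in either line. For the KO#2-labelled libraries the difference was 0.07 (95% interval −0.89 to 1.02). At 0 h Tap1 was higher in the KO#2-labelled libraries than in wt cells by 1.65 (SE 0.52, edgeR adjusted p = 0.0198).

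The difference between the Tap1 response of the KO#2-labelled libraries and that of wt cells was −1.81 on the log2 scale (SE 0.69, edgeR adjusted p = 0.138), which was not called, and with no filter on low counts it was −1.81 with an adjusted p of 0.0326. Without KO#1 0 h replicate 3, the lowest of that group, the rise in KO#1 was 1.08 (adjusted p = 0.0682), with library sizes alone it was 0.84 (0.226), and with counts thinned to the smallest total 1.01 (0.161). With library sizes alone the rise in wt cells was 1.29 (edgeR adjusted p = 0.0660). Relative to the median gene on that scale, Tap1 rose by 1.88 in wt cells and by 1.62 in KO#1. The higher level in the KO#2-labelled libraries at 0 h was not called without wt 0 h replicate 1, wt 0 h replicate 2 or KO#2 0 h replicate 1 (1.42 to 1.59, adjusted p = 0.0537 to 0.0726). Between the KO clones at 0 h the difference was 1.19 (edgeR adjusted p = 0.0842), and without KO#1 0 h replicate 1 it was 1.74 and called (0.0416). At 24 h the lines overlapped, with differences from wt cells of 0.18 (95% interval −0.78 to 1.15) in KO#1 and −0.17 (−1.13 to 0.79) in the KO#2-labelled libraries. Apol8 was the gene most like Tap1 (r = 0.868 over 18 libraries).

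Psmb9 and Psmb8, the inducible proteasome subunits, were near the detection floor. Psmb9 had 0, 3 and 7 counts in wt 0 h, 0, 5 and 14 in KO#1 0 h and 6, 20 and 5 in KO#2 0 h. Psmb9 counts of 24 h were 19, 5 and 19 counts in wt cells, 20, 9 and 34 in KO#1 and 13, 33 and 26 in the KO#2-labelled libraries. Mean levels at 24 h were 0.930 ± 0.373 CPM in wt 24 h, 1.50 ± 0.60 in KO#1 24 h and 1.03 ± 0.31 for KO#2 24 h (SD, n = 3), against 0.286 to 0.620 at 0 h. Groups overlapped in each of the 9 comparisons, and edgeR called none for Psmb9. With induction, log2 fold changes were 1.37 (95% interval −0.34 to 3.09) in wt cells, 1.30 (−0.25 to 2.85) in KO#1 and 1.15 (−0.27 to 2.58) in the KO#2-labelled libraries. Nipal4 was the gene most like Psmb9 (r = 0.875 over 18 libraries).

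Psmb8 had 0, 1 and 0 counts in wt 0 h, 1, 0 and 2 in KO#1 0 h and 2, 2 and 4 in KO#2 0 h. Psmb8 counts of 24 h were 11, 2 and 15 counts in wt cells, 2, 1 and 8 in KO#1 and 6, 10 and 12 in the KO#2-labelled libraries. Summed over each group and scaled to its size, the ratio of 24 h to 0 h was 16.8 in wt cells (28 counts against 1, exact 95% interval 2.78 to 687, for counting error only), 2.75 in KO#1 (11 against 3, 0.726 to 15.3) and 3.48 in the KO#2-labelled libraries (28 against 8, 1.55 to 8.85). The 24 h libraries were above those of 0 h in wt cells and in the KO#2-labelled libraries when scaled to CPM, and overlapped in KO#1. Psmb8 did not pass the filter. Without the filter, edgeR's quasi-likelihood test gave the difference in wt cells an adjusted p of 0.0107, and DESeq2 gave 0.0219. Its antisense neighbour Gm20496 shares 498 exonic bases with it, so that these counts could include reads of that gene.

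Nlrc5, the class I transactivator, had 1, 3 and 4 counts in wt 0 h, 6, 2 and 5 in KO#1 0 h and 18, 18 and 9 in KO#2 0 h. Nlrc5 had 1 count in each wt library of 24 h, 4, 1 and 1 in KO#1 and 19, 12 and 6 in the KO#2-labelled libraries. All 3 of the latter were above all 3 wt libraries at 24 h, while the KO clones overlapped. At 24 h the pooled ratio of the KO#2-labelled libraries to wt cells was 7.84 (37 counts against 3, exact 95% interval 2.48 to 39.7), and that to KO#1 was 3.58 (37 against 6, 1.50 to 10.4). The edgeR fit gave 2.87 on the log2 scale (SE 0.74, adjusted p = 0.00584) and 1.83 (SE 0.66, adjusted p = 0.0391). The former was called in all 24 settings that gave a value. The latter was not called in 11 of 24, of which 9 left out a library, KO#1 24 h replicate 2 or 3, KO#2 24 h replicate 1 or 2, KO#1 0 h replicate 2, KO#2 0 h replicate 1 or any of the wt 24 h replicates (1.21 to 1.96, adjusted p up to 0.215), and the others were DESeq2 (adjusted p = 0.0888) and no filter on low counts (0.103). At these counts the fitted size depends on the prior count.

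In wt cells Nlrc5 had a log2 fold change of −2.02 from 0 h to 24 h (SE 0.87), which was not called (edgeR adjusted p = 0.0600), and in KO#1 −1.58 (SE 0.74, adjusted p = 0.0916). Without KO#1 24 h replicate 1 the latter was −2.49 and called (edgeR adjusted p = 0.0454). The wt libraries of 24 h were below those of 0 h without overlap. The pooled ratios were 0.225 (exact 95% interval 0.0384 to 0.938) and 0.346 (0.108 to 0.976). For the KO#2-labelled libraries the ratio was 0.819 (0.515 to 1.29). The change of Nlrc5 with time was not called in any line in the fit reported. It was called lower in wt cells and in KO#1 with the replicate number as a block (−2.22 and −1.66 on the log2 scale, edgeR adjusted p = 0.0209 and 0.0403) and with library sizes alone (−2.61 and −2.39, 0.0234 and 0.0165). With library sizes alone the medians over all tested genes were also lower, −0.58 in wt cells and −0.78 in KO#1. Gm38129 was the gene most like Nlrc5 (r = 0.924 over 18 libraries).

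Irf7, the factor that amplifies the type I interferon response, was undetected in 2 groups. It had 0 counts in each of the wt 0 h and KO#1 24 h libraries, 1, 1 and 7 in KO#1 0 h and 10, 8 and 5 in KO#2 0 h. At 24 h it had 0, 0 and 4 counts in wt cells and 8, 3 and 0 in the KO#2-labelled libraries. At 0 h the pooled counts of Irf7 were 9 in KO#1 and 23 in the KO#2-labelled libraries against 0 in wt cells, with lower exact 95% limits of the ratio of 1.73 and 2.20, for counting error only. In KO#1 they were 0 at 24 h against 9 at 0 h, with an upper exact 95% limit of the ratio of 0.380. Irf7 did not pass the filter of the test, and without the filter edgeR's adjusted p was 0.0217 for the KO#2-labelled libraries against wt cells at 0 h and 0.0168 for KO#1 from 0 h to 24 h, for which DESeq2 gave 0.117 and 0.0825. For KO#1 against wt cells at 0 h edgeR without the filter gave an adjusted p of 0.131, which was not called.

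Ligands of the interferon receptors were all but absent from the counts. Of 21 interferon genes, 18 had 0 counts in all 18 libraries, and Ifnab, Ifnk and Ifnz had 1, 4 and 1 counts in all. The receptors and signalling proteins were expressed, and 14 of 15 were tested. From 0 h to 24 h, 2 were higher and 7 lower in wt cells, 2 and 5 in KO#1 and 2 and 4 in the KO#2-labelled libraries, with median log2 fold changes of −0.67, −0.38 and −0.60 against 0.03, 0.00 and −0.03 over all tested genes, where 26.0% were higher and 24.7% lower, 20.1% and 20.6%, and 12.7% and 13.3%. In wt cells, Il10rb, a chain of receptors for interferon lambda, fell by 4.08 on the log2 scale, and Irf9 and Stat2, which form a complex that binds interferon-stimulated genes, fell with log2 fold changes of −2.97 and −2.27 (edgeR adjusted p = 8.2e-05, 1.41e-06 and 4.89e-05). Irf9 had 15.0 ± 2.46 CPM in wt 0 h and 1.94 ± 0.470 in wt 24 h (SD, n = 3). At 24 h, 4 of the 14 were higher and 1 lower in KO#1 than in wt cells, and 6 were higher and 1 lower in the KO#2-labelled libraries, against 6.25% and 3.61%, and 21.3% and 16.0%, of all genes. Jak2, a kinase of the interferon gamma receptor, had the largest of these differences, 2.06 in KO#1 and 1.92 in the KO#2-labelled libraries (edgeR adjusted p = 0.000523 and 0.000290).

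Among the targets, 34 of 43 interferon-stimulated genes were tested, and they did not move one way. From 0 h to 24 h, 10 were called higher and 9 lower in wt cells, 6 and 9 in KO#1, and 7 and 5 in the KO#2-labelled libraries, with median log2 fold changes of 0.06, 0.14 and −0.03, against 0.03, 0.00 and −0.03 over all tested genes. The background was 26.0% higher and 24.7% lower in wt cells, 20.1% and 20.6% in KO#1 and 12.7% and 13.3% in the KO#2-labelled libraries. In wt cells Rnf213, a ubiquitin ligase, fell by 5.07 on the log2 scale (108 ± 25.8 CPM at 0 h and 3.15 ± 1.41 at 24 h), while the guanosine triphosphatases Gbp2 and Irgm1 rose by 4.85 and 4.14 (edgeR adjusted p = 2.01e-07, 0.00123 and 1.13e-05). Irgm1 had 0.860 ± 0.610 CPM in wt 0 h and 13.1 ± 2.61 in wt 24 h, and it was called higher in KO#1 and in the KO#2-labelled libraries as well (3.99 and 2.88, edgeR adjusted p = 2.97e-05 and 0.000152). The antiviral gene Mx1 was called lower at 24 h in all 3 lines (edgeR adjusted p = 0.0120, 0.0245 and 0.00409), with at most 1 count in each wt 24 h library and 0 in each KO#1 24 h library.

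Against wt cells at 0 h, 8 of the 34 were called higher and 1 lower in the KO#2-labelled libraries, with a median of 0.69 against 0.10 over all tested genes, and 2 higher and 0 lower in KO#1. Over all tested genes 21.5% were higher and 16.6% lower in the former and 3.99% and 2.68% in KO#1, so that the share called higher was near the background in the KO#2-labelled libraries. Ifit2 and Gbp2 had the largest differences in the former, 4.15 and 3.44 (edgeR adjusted p = 0.00353 and 0.0227), from at most 1 count per wt library. At 24 h, 11 were higher and 5 lower in the KO#2-labelled libraries (median 0.91 against 0.20 over all tested genes) and 3 higher and 2 lower in KO#1, with 21.3% higher and 16.0% lower, and 6.25% and 3.61%, over all genes. Xaf1, a gene that favours apoptosis, was the largest of these and went against the count: it had a log2 fold change of −3.93 in the KO#2-labelled libraries (edgeR adjusted p = 1.33e-06), with 62.1 ± 23.9 CPM in wt 24 h and 4.07 ± 0.869 in KO#2 24 h. The response of Xaf1 and that of Rnf213 differed between the KO#2-labelled libraries and wt cells (−4.19 and 2.57, edgeR adjusted p = 0.000517 and 0.0192), the only 2 of the 34 called in that test.

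**Figure D3:**
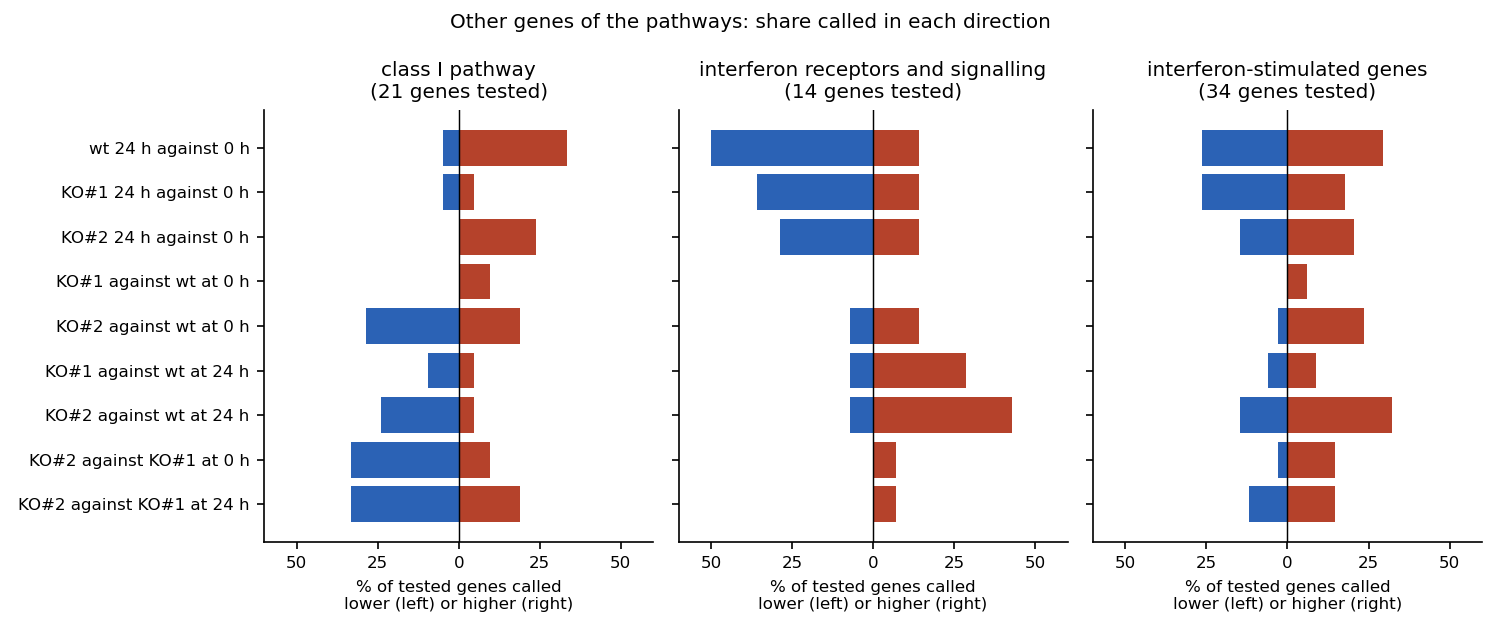
Percent of the tested genes of 3 lists (x axes) called lower (left bars) or higher (right bars) in each comparison, with no error since these are counts. Receptors and signalling genes were called lower more often than higher with induction in wt cells (7 and 2 of 14) and higher more often than lower in the KO#2-labelled libraries against wt cells at 24 h (6 and 1).

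Of the 23 other genes of the class I pathway, 21 were tested. With induction 7 were called higher and 1 lower in wt cells, 1 and 1 in KO#1, and 5 and 0 in the KO#2-labelled libraries, with median log2 fold changes of 0.51, −0.00 and 0.30 against 0.03, 0.00 and −0.03 over all tested genes. Over all tested genes 26.0% were higher and 24.7% lower in wt cells, 20.1% and 20.6% in KO#1 and 12.7% and 13.3% in the KO#2-labelled libraries. H2-T23, a non-classical class I gene, rose by 4.69 in wt cells, from at most 1 count per library, and Erap1, the peptidase that trims peptides in the endoplasmic reticulum, rose by 3.13 (edgeR adjusted p = 0.000568 and 0.000509). Psmb10, the third inducible subunit of the proteasome, rose in all 3 lines by 2.92, 2.90 and 2.85 (edgeR adjusted p = 1.53e-05, 2.84e-05 and 5.78e-05). In CPM its means were 5.55 ± 1.71 and 41.9 ± 6.17 in wt cells at 0 h and 24 h, 7.07 ± 2.46 and 52.5 ± 7.62 in KO#1, and 1.44 ± 0.698 and 10.4 ± 4.11 in the KO#2-labelled libraries (SD, n = 3). Against wt cells, Psmb10 was lower in the KO#2-labelled libraries, with log2 fold changes of −1.95 at 0 h and −2.01 at 24 h (edgeR adjusted p = 0.00166 and 0.000366). The constitutive subunits that these replace rose in wt cells in 3 of 3, Psmb6, Psmb7 and Psmb5, by 2.02, 1.80 and 1.39, and in KO#1 in 2 of 3. For the same genes the KO#2-labelled libraries had 0.60, 0.65 and 0.60 (edgeR adjusted p = 0.208, 0.277 and 0.0737), and none was called. Against wt cells, 1 of these 3 genes was lower in the KO#2-labelled libraries at 0 h (Psmb5) and 2 at 24 h (Psmb5 and Psmb6), with 0 higher. The medians were −0.24 and −1.66 on the log2 scale, and 16.6% and 16.0% of all genes were lower.

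Against wt cells at 24 h, 1 of the 21 was called higher and 5 lower in the KO#2-labelled libraries, with a median log2 fold change of −0.39 against 0.20 over all tested genes, where 21.3% were higher and 16.0% lower. H2-Q4, a class I gene of the MHC for which reads shared with other genes were not examined, was the one higher, by 3.15 (1.48 ± 0.602 CPM in wt 24 h and 12.9 ± 4.67 in KO#2 24 h, edgeR adjusted p = 0.000144). It was higher in KO#1 by 1.59 (edgeR adjusted p = 0.0462), where 1 of the 21 was higher and 2 lower, against 6.25% and 3.61% of all genes. At 0 h 4 were higher and 6 lower in the KO#2-labelled libraries (21.5% and 16.6% of all genes) and 2 and 0 in KO#1 (3.99% and 2.68%). The H2-T23 response was the only one of the 21 that differed between the KO#2-labelled libraries and wt cells (−5.50, edgeR adjusted p = 0.0230).

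Class II genes and their regulator gave 4 of 7 tested genes, with 1 higher and 3 lower in wt cells, 1 and 0 in KO#1 and 1 and 2 in the KO#2-labelled libraries from 0 h to 24 h. Cd74, the invariant chain, was the one called higher, by 1.01, 2.04 and 1.10 (edgeR adjusted p = 0.0443, 0.000543 and 0.0297). Of 8 tested among 10 other interferon regulatory factors and their binding partners, 1 was higher and 3 lower in wt cells, 0 and 3 in KO#1, and 0 and 2 in the KO#2-labelled libraries, with Irf9 lower in each. Of 10 tested among 12 sensors of nucleic acids and their adaptors, 2 were higher and 3 lower in wt cells, 2 and 3 in KO#1 and 0 and 1 in the KO#2-labelled libraries, with median log2 fold changes of −0.34, −0.39 and −0.08. The background for these 3 lists is that given for the class I genes with time. Tmem173, which encodes the adaptor Sting, was lower in each line, with −1.78, −2.18 and −1.88 on the log2 scale (edgeR adjusted p = 0.00817, 0.00324 and 0.0132).

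Fibroblasts express class I genes and respond to interferon, and feeder cells were present at 0 h. The part of their RNA in the values at 0 h cannot be told apart from the time of induction by the design. The summed level of 8 fibroblast genes was 110 to 390.0 CPM in wt 0 h, 183 to 514 in KO#1 0 h and 331 to 898 in KO#2 0 h. At 24 h it was 19.0 to 34.6 CPM in wt cells, 38.7 to 51.8 in KO#1 and 71.0 to 219 in the KO#2-labelled libraries. All 8 were tested. With induction, 6 of 8 fell and 1, Dcn, rose in wt cells and in KO#1, and 3 fell in the KO#2-labelled libraries, where 24.7%, 20.6% and 13.3% of all genes were called lower. Acta2 and Col1a1 fell in wt cells with log2 fold changes of −4.87 and −4.84 (edgeR adjusted p = 2.15e-06 and 0.00118). Dcn, which encodes decorin, a defining product of fibroblasts, had 0 counts in the wt 0 h libraries, 0.223 ± 0.207 CPM in KO#1 0 h and 4.04 ± 0.758 in KO#2 0 h, and 5.80 ± 2.20 in wt 24 h. At 24 h, without feeders, 6 of the 8 were higher in the KO#2-labelled libraries than in wt cells and 0 lower, as were 6 of 6 tested markers of primitive endoderm, against 21.3% of all genes higher. In KO#1 at 24 h, 1 fibroblast gene was higher and 1 lower than in wt cells, and 2 of the 6 markers of primitive endoderm, Pdgfra and Gata6, were higher and 0 lower, against 6.25% of all genes higher. At 0 h, 4 of the 8 fibroblast genes were higher in the KO#2-labelled libraries than in wt cells and 0 lower (median 1.55), and 3 of the 6 markers of primitive endoderm were higher and 1 lower, against 21.5% and 16.6% of all genes. In KO#1 at 0 h, 0 fibroblast genes were called and 1 marker of primitive endoderm was higher, against 3.99% of all genes. The part of these cells in the higher Tap1 and in Irf7 of the KO#2-labelled libraries at 0 h, in the higher H2-K1 of both KO clones and in the higher Nlrc5 of the KO#2-labelled libraries at 24 h was not tested.

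Within the groups of 0 h, the level of the 9 genes was compared with the mean log2 CPM of the 8 fibroblast genes, over 9 libraries as deviations from group means. B2m had r = −0.13 and rho = 0.02 (exact permutation p = 0.773 and 0.986, two-sided, over all permutations within groups). H2-D1 had r = 0.60 and rho = 0.43 (exact permutation p = 0.176 and 0.356) and H2-K1 r = −0.44 and rho = −0.58 (exact permutation p = 0.306 and 0.157). Irf1 had r = 0.37 and rho = 0.65 (exact permutation p = 0.449 and 0.111), Tap1 r = 0.05 and rho = 0.03 (exact permutation p = 0.921 and 0.949), Nlrc5 r = 0.04 and rho = −0.03 (exact permutation p = 0.917 and 0.940) and Psmb8 r = 0.34 and rho = 0.42 (exact permutation p = 0.435 and 0.352). The strongest were those of Irf7, r = −0.76 and rho = −0.73 (exact permutation p = 0.0556 for both), and Psmb9, r = −0.71 and rho = −0.73 (exact permutation p = 0.0602 and 0.0648), both downward and both of genes near the floor. The wt 0 h libraries all had 0 counts of Irf7 and so no deviation, and its relation rests on the KO libraries. Permuting the wt libraries changed nothing for Irf7, which limited how low its p could be. After adjustment over the 9 relations the lowest exact permutation p was 0.271 for r and 0.292 for rho. Without the 2 libraries farthest from the median score, r ran from −0.84 for Irf7 to 0.60 for H2-D1, and that of Tap1 and of Nlrc5 was 0.48 each.

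**Figure D4:**
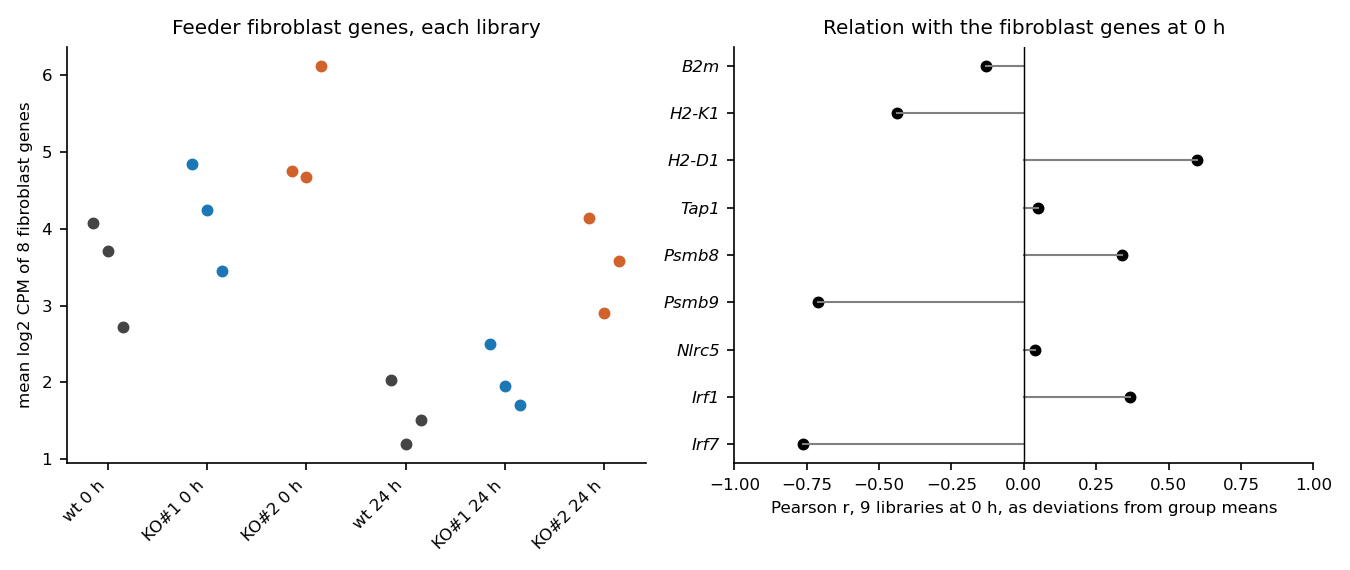
Left, mean log2 CPM of 8 fibroblast genes in each library (points) by group, and right, Pearson r of each of the 9 genes with that mean at 0 h over 9 libraries, as deviations from group means. The score is higher at 0 h than at 24 h within each line, and r runs from −0.76 (Irf7) to 0.60 (H2-D1). For Irf7 the wt 0 h libraries, all at 0 counts, have no deviation.

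The 9 marker genes of immune cells summed to 4.92 to 6.15 CPM in wt 0 h, 11.4 to 14.8 in KO#1 0 h, 4.59 to 7.53 in KO#2 0 h, 3.93 to 4.88 in wt 24 h, 3.90 to 4.60 in KO#1 24 h and 4.88 to 9.04 in KO#2 24 h. Ptprc, the common leukocyte antigen, had 0 counts in the wt 0 h libraries and at most 12 in any library, and Csf1r, Adgre1 and Tyrobp were also at 0 in wt 0 h. Of the 5 tested immune markers, Itgam was called higher with time in each line (1.97, 2.40 and 3.34), Cd3e lower in wt cells and KO#1 (−1.57 and −2.02) and Lyz2 lower in KO#1 (−5.01, all edgeR on the log2 scale). Over all genes, 26.0% were higher and 24.7% lower with time in wt cells, 20.1% and 20.6% in KO#1 and 12.7% and 13.3% in the KO#2-labelled libraries. Csf1r was the 1 marker called against wt cells at 0 h, higher in the KO#2-labelled libraries, and 0 were called in either KO against wt cells at 24 h. At 0 h 21.5% of all genes were higher in the KO#2-labelled libraries, and 6.67% were called in KO#1. At 24 h 37.3% were called in the KO#2-labelled libraries and 9.86% in KO#1. The 5 endothelial markers summed to 86.0 to 101 CPM in wt 0 h, 15.2 to 40.7 in KO#1 0 h and 25.3 to 54.8 in KO#2 0 h, and to 5.11 to 19.9 in all libraries of 24 h. Vwf, a product of endothelium, made up most of this sum in wt 0 h (90.9 ± 9.79 CPM), was called lower with time in the 3 lines (−6.24, −3.73 and −3.69 on the log2 scale) and was lower at 0 h in both KO clones (−1.90 and −1.82). Kdr, another of the 3 tested, rose with time in each line (2.91, 1.62 and 2.31) and was higher in the KO#2-labelled libraries than in wt cells at 0 h and 24 h (2.39 and 1.79). Tek, the remaining one, was called higher in the KO#2-labelled libraries at 0 h, against wt cells and against KO#1. The background with time is that given for the immune markers. Against wt cells at 0 h, 21.5% of all genes were higher and 16.6% lower in the KO#2-labelled libraries, and 2.68% lower in KO#1. In the KO#2-labelled libraries, 15.1% were higher than in KO#1 at 0 h and 21.3% higher than in wt cells at 24 h. The defining markers Cdh5 and Emcn had 0 counts in wt 0 h, KO#1 0 h and wt 24 h. The part of these cells in the results was not tested.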

How the data were processed

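RNA-seq of 18 libraries (wt, KO#1 and KO#2 at 0 h and 24 h, 3 biological replicates each) was grouped by the sample titles. The authors deposited counts, whole numbers of reads per gene for 45706 genes, not normalized. Per the paper's methods, stranded total RNA libraries were sequenced as paired 75-base reads, trimmed, cleared of ribosomal sequences and aligned to GRCm38 with STAR, and compared with DESeq2. The annotation release and the use of strand in counting are not given in the sources used here. Positions came from GENCODE M21, which holds 45143 of the identifiers, and promoter sequences from RefSeq (GRCm38.p6).

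The counts were filtered with filterByExpr (minimum count 10), which left 16619 genes, scaled with TMM and fitted with edgeR 4.0.16 in R 4.3.3 (one quasi-likelihood model of the 6 groups, common dispersion 0.0970, Benjamini-Hochberg adjusted p under 0.05 over all tested genes). CPM in the text are counts per 1000000 of the tested total multiplied by the TMM factor, and log2 CPM used a prior count of 2. Ratios of pooled low counts carry exact intervals, which cover counting error only. Relations with fibroblast genes used exact permutations within groups (SciPy 1.17.1), and figures used matplotlib 3.10.9. Of these steps, the edgeR fit was tested on simulated counts, in the comparison of wt 24 h with wt 0 h.

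The members, lists, tests and alternatives were chosen with earlier results of these data known. All 9 members and Hmga2 are named with their values, and of every other list up to 4 called genes with the largest change in a comparison. Named as well, for each tested member, is the gene with the most similar log2 CPM over the 18 libraries. Mx1 in wt cells, the constitutive proteasome genes in the KO#2-labelled libraries, and the markers and ligands given for their counts at or near 0 were named after their values were seen.

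Alternatives were DESeq2 1.42.0, its size factors, library sizes alone, no filter, a minimum of 10 counts in each library, fits of the compared groups alone, a replicate block, stricter thresholds and leaving out each library. Protein-coding genes only and counts thinned to the smallest total were chosen after seeing the data. The replicate numbers come from the sample titles alone. Deviations from group means of same-numbered libraries had r = 0.223 to 0.587 in KO#1 against wt cells at 24 h, the only comparison in which every pair exceeded 0.1, so that the numbers were taken to pair the samples there. The fit reported has no block and does not use that pairing. With the replicate number as a block over all groups, H2-K1 differed by 1.04 on the log2 scale there (edgeR adjusted p = 0.0223). B2m differed by 0.87 (edgeR adjusted p = 0.156) and Irf1 by 0.05 (0.952). No sample was left out.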

Additional observations from a re-analysis of the deposited data

How the results depend on the processing

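No called difference of the 9 genes changed direction under any alternative run. Of the 16 called differences, 4 were called under every alternative that gave a value: the rises of Irf1 in KO#1 and in the KO#2-labelled libraries, and the higher H2-K1 and Nlrc5 of the KO#2-labelled libraries against wt cells at 24 h. The number of the 9 genes called moved by more than 1.5 times as follows, and the cause was not tested except where fewer counts or libraries entered. With library sizes alone it was 1 for the KO#2-labelled libraries with time (3 in the fit reported), 1 for these against wt cells at 0 h (2) and 0 for KO#1 against wt cells at 24 h (1). With at least 10 counts in every library it was 0 for the KO#2-labelled libraries against wt cells at 0 h, and 1 against wt cells at 24 h and against KO#1 at 24 h (2 each). Those last 2 comparisons also gave 1 with only the groups compared, and that between the KO clones gave 1 with DESeq2. Without a filter it was 1 for the KO clones at 0 h and 1 for the response of the KO#2-labelled libraries against that of wt cells (0 each), Tap1 in both. With counts thinned to the smallest total, chosen after seeing the data, it was 1 in KO#1 and 1 in the KO#2-labelled libraries with time (3 each), 1 for the latter against wt cells at 24 h and 0 against KO#1 at 24 h. At an adjusted p under 0.01 it was 1 in KO#1 with time, and 0 for the KO#2-labelled libraries against wt cells at 0 h, for KO#1 against wt cells at 24 h and for the KO clones at 24 h. With a minimum log2 fold change of 1 in either direction it was 1 for the KO#2-labelled libraries against wt cells at 0 h. Moves within 1.5 times also changed which genes were called: Psmb8 entered in wt cells with time by DESeq2 and without a filter, and Irf7 without a filter for KO#1 with time and for the KO#2-labelled libraries against wt cells at 0 h and KO#1 at 24 h. Psmb8 also entered in wt cells with 1 library left out, other than wt 24 h replicate 3 or KO#2 24 h replicate 3 (edgeR adjusted p = 0.00511 to 0.0497). Irf7 also entered in KO#1 with time without any 1 of the wt 0 h replicates (edgeR adjusted p = 0.0450 to 0.0475). With library sizes alone, Nlrc5 entered in wt cells and Nlrc5 and B2m in KO#1 with time, where the medians over all tested genes were −0.58 and −0.78. H2-K1 entered for the KO clones at 24 h, and H2-D1 for the KO#2-labelled libraries against wt cells and against KO#1 at 24 h (1.36 and 1.67 on the log2 scale, edgeR adjusted p = 0.0122 and 0.00352). The medians over all tested genes were 1.24 against wt cells and 1.21 against KO#1 at 24 h on that scale.

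Leaving out each library in turn gave 1 to 4 genes called in wt cells with time (1 without wt 24 h replicate 3), 2 to 4 in KO#1, and 1 to 3 in the KO#2-labelled libraries (1 without KO#2 24 h replicate 3). It gave 0 to 2 for the KO#2-labelled libraries and 0 to 1 for KO#1 against wt cells at 0 h and 24 h respectively, 0 to 1 for the KO clones at 0 h and 0 to 2 at 24 h. With the replicate number as a block, 4 genes were called in wt cells with time and 3 in KO#1, where Nlrc5 entered with log2 fold changes of −2.22 and −1.66 (edgeR adjusted p = 0.0209 and 0.0403) and H2-D1 left in KO#1 (0.0587), and the block changed no other call. Same-numbered libraries shared deviations with a mean r of 0.05 over all pairs of groups, against −0.03 for other pairs. Totals ran from 3466436 to 23872837 counts, Psmb8 and Irf7 did not pass the filter on low counts, and the smallest detectable difference was not measured.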
